A study of Homo sapiens with 2 samples.

Results

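The mitochondrial respiratory chain and ATP synthase are built from subunits of a mixed origin, most of them encoded in the nucleus. The 83 protein-coding genes described here were taken by name from the 27655 genes of the deposited table, as the nuclear genes for complex I (NDUFA, NDUFB, NDUFC, NDUFS and NDUFV names), complex II (SDH), complex III (UQCR names and CYC1), complex IV (COX4 to COX8 names) and complex V (ATP5 names), with CYCS, the carrier cytochrome c. The rule uses names and gene type alone, although it was written with earlier results of these data known. There were 36 genes for complex I, 4 for complex II, 10 for complex III, 13 for complex IV, 19 for complex V and 1 for cytochrome c. NDUFA4, which was named for complex I but is a subunit of cytochrome c oxidase, was counted under complex IV.

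The cells were PC9-BrM3, a brain-tropic derivative of the EGFR-mutant lung adenocarcinoma line PC9, kept in routine culture without further treatment. They carried either a hairpin against PCDH1 (shPCDH1) or the control construct (shNC, genotype WT), with 1 GEO sample in each group. Poly-A RNA was sequenced, and the authors' deposited table sets the group with code 8 against that with code 7. Which code stands for shPCDH1 is not in the labels, so each change below is that of group 8 relative to group 7, and values of single libraries were not used.

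PCDH1 itself, the protocadherin targeted by the hairpin (chromosome 5), was at -1.38 ± 0.14 on the log2 scale according to the authors' deposited table, with an adjusted p of 1.76e-20. Every fold change, p and adjusted p below comes from that table. The value after ± is the standard error that the authors' p implies under a Wald test, which is an assumption, and "called" means an adjusted p under 0.05. Depth per library is unknown here, and the labels do not say that libraries came from separate cultures, so the p-values reflect variation among libraries alone, possibly technical. Marker levels could not be read without library values. An adjusted p below 1 was given for 5 of 5 carcinoma epithelium markers, 3 of 5 leukocyte markers and 3 of 4 endothelium markers, and for 1 of the 4 fibroblast markers in the table. Of all these, CDH1 and COL1A1 were called higher, and KRT18 and PECAM1 lower.

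Oxidative phosphorylation passes electrons from NADH through complex I, or from succinate through complex II, to ubiquinone. Complex III hands them to cytochrome c and complex IV to oxygen, while complexes I, III and IV pump protons that drive ATP synthesis by complex V. Complex II has no mitochondrially encoded subunit, whereas the other complexes join nuclear and mitochondrial gene products. Transcription of many of the nuclear genes is known to depend on NRF1, on ETS-family factors such as GABP, and on YY1.

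Short words bound by those factors were looked for close to the starts of the genes. Windows of RefSeq promoters (GRCh38.p14, 250 bases before to 50 after the start) were matched for 67 of the 83 genes, 7 of the 11 called ones among them. They were searched on both strands for an NRF1-type word, GCGCANGC, an ETS-type word, CCGGAAG, and a YY1-type word, AAGATGGC, where N is any base. No overlap between the words was excluded. Of the 7 called genes with a window, 4 held the NRF1-type word and the other 3 the ETS-type word. The YY1-type word was held by 1 of the 7 as well, but not wholly before the start, so it is not marked below. The stretches of 100 bases that follow are upstream of the start, 5′ to 3′ on the gene's own strand, with the word in capitals, or its reverse complement where it lies on the other strand. All end at the start except that of NDUFS7, whose first base lies 119 bases before it. Of all 67 genes with a window, 47 held at least 1 of the words. Each stretch shows where the word lies, and such a match is a description of letters and not of binding.

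NDUFV2, chr18:9102599-9102698, plus strand, NRF1-type word: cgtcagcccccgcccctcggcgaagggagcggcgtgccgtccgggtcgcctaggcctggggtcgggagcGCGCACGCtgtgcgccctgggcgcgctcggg
NDUFS7, chr19:1383788-1383887, plus strand, NRF1-type word: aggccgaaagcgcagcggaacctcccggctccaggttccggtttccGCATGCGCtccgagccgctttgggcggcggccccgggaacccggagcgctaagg
UQCRFS1, chr19:29213152-29213251, minus strand, NRF1-type word: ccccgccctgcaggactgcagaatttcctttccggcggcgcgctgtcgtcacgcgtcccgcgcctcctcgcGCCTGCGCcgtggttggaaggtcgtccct
UQCR10, chr22:29767269-29767368, plus strand, NRF1-type word: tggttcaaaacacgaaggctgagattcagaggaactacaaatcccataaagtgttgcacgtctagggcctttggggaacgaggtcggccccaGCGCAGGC
UQCRH, chr1:46303598-46303697, plus strand, ETS-type word: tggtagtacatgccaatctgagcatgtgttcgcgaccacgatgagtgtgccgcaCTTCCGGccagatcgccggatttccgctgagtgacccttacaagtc
COX8A, chr11:63974520-63974619, plus strand, ETS-type word: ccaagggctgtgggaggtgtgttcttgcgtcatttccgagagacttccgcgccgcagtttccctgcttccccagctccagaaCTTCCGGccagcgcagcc
NDUFB7, chr19:14572067-14572166, minus strand, ETS-type word: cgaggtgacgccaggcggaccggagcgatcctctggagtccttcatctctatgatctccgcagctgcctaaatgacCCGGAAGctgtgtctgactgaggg

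The words were common in this family as a whole. The NRF1-type word was in 44.8% of the 67 genes, against 24.3% of the 10694 protein-coding genes that had both a window and an adjusted p under 1, and 12% of all 35093 windows. The ETS-type word was in 31.3% of the genes, 21.3% of those protein-coding genes and 10.3% of all windows, and the YY1-type word in 17.9%, 6.23% and 2.89%. Among the members, only ATP5PF held the YY1-type word wholly before the start. Any of the words was held by 47 of the 67 genes, or 70.1%, against 43.2% of the protein-coding genes. Medians with and without a word were close for the NRF1-type and ETS-type words and farther apart for the YY1-type word, and none of these differences was tested. The median log2 fold change was -0.20 with and -0.17 without the NRF1-type word, -0.17 with and without the ETS-type word, and -0.058 with and -0.19 without the YY1-type word.

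Across the 83 genes, 11 were called lower in group 8 and 0 called higher. Of all genes in the authors' deposited table, 7.28% were called lower and 6.78% higher. All 83 had an adjusted p below 1, and among the 18002 genes with such a value 11.2% were called lower and 10.4% higher. The share of members called lower, 13.3%, was therefore near that background, and 13.4% of the protein-coding genes among those 18002 were lower too. Every member and every gene of the other lists below is protein-coding, so 13.4% is the closer background wherever 11.2% is given. The absence of higher calls stood beside a background of 10.4%. At an unadjusted p under 0.05, 21 members were lower and 2 higher, against 16.7% and 15.6% of those 18002 genes. No other tool was run, since no library values were used.

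Small downward values were spread over the family. The log2 fold change was below 0 in 64 of 83 genes, or 77.1%, and the median was -0.19. Among genes with an adjusted p below 1, 50.5% lay below 0 and the median was -0.0062. The members were short genes, with a median exonic length of 2475 bases against 5019 for the protein-coding genes among those 18002. In the shortest 2722 of those protein-coding genes, which include 47 members, 58.4% lay below 0, with a median of -0.092. Of these 2722 short genes, 387 were called lower, or 14.2%, and 214 higher. After a trend with length and GC content had been removed, the members' median was -0.21. The trend follows the mean of the protein-coding genes among those 18002, 0.057 before extreme values were limited. Their median, 0.0048, was added back instead. Because that offset is part of the -0.21, the share of length and GC in the downward values cannot be read from it.

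**Figure D1:**
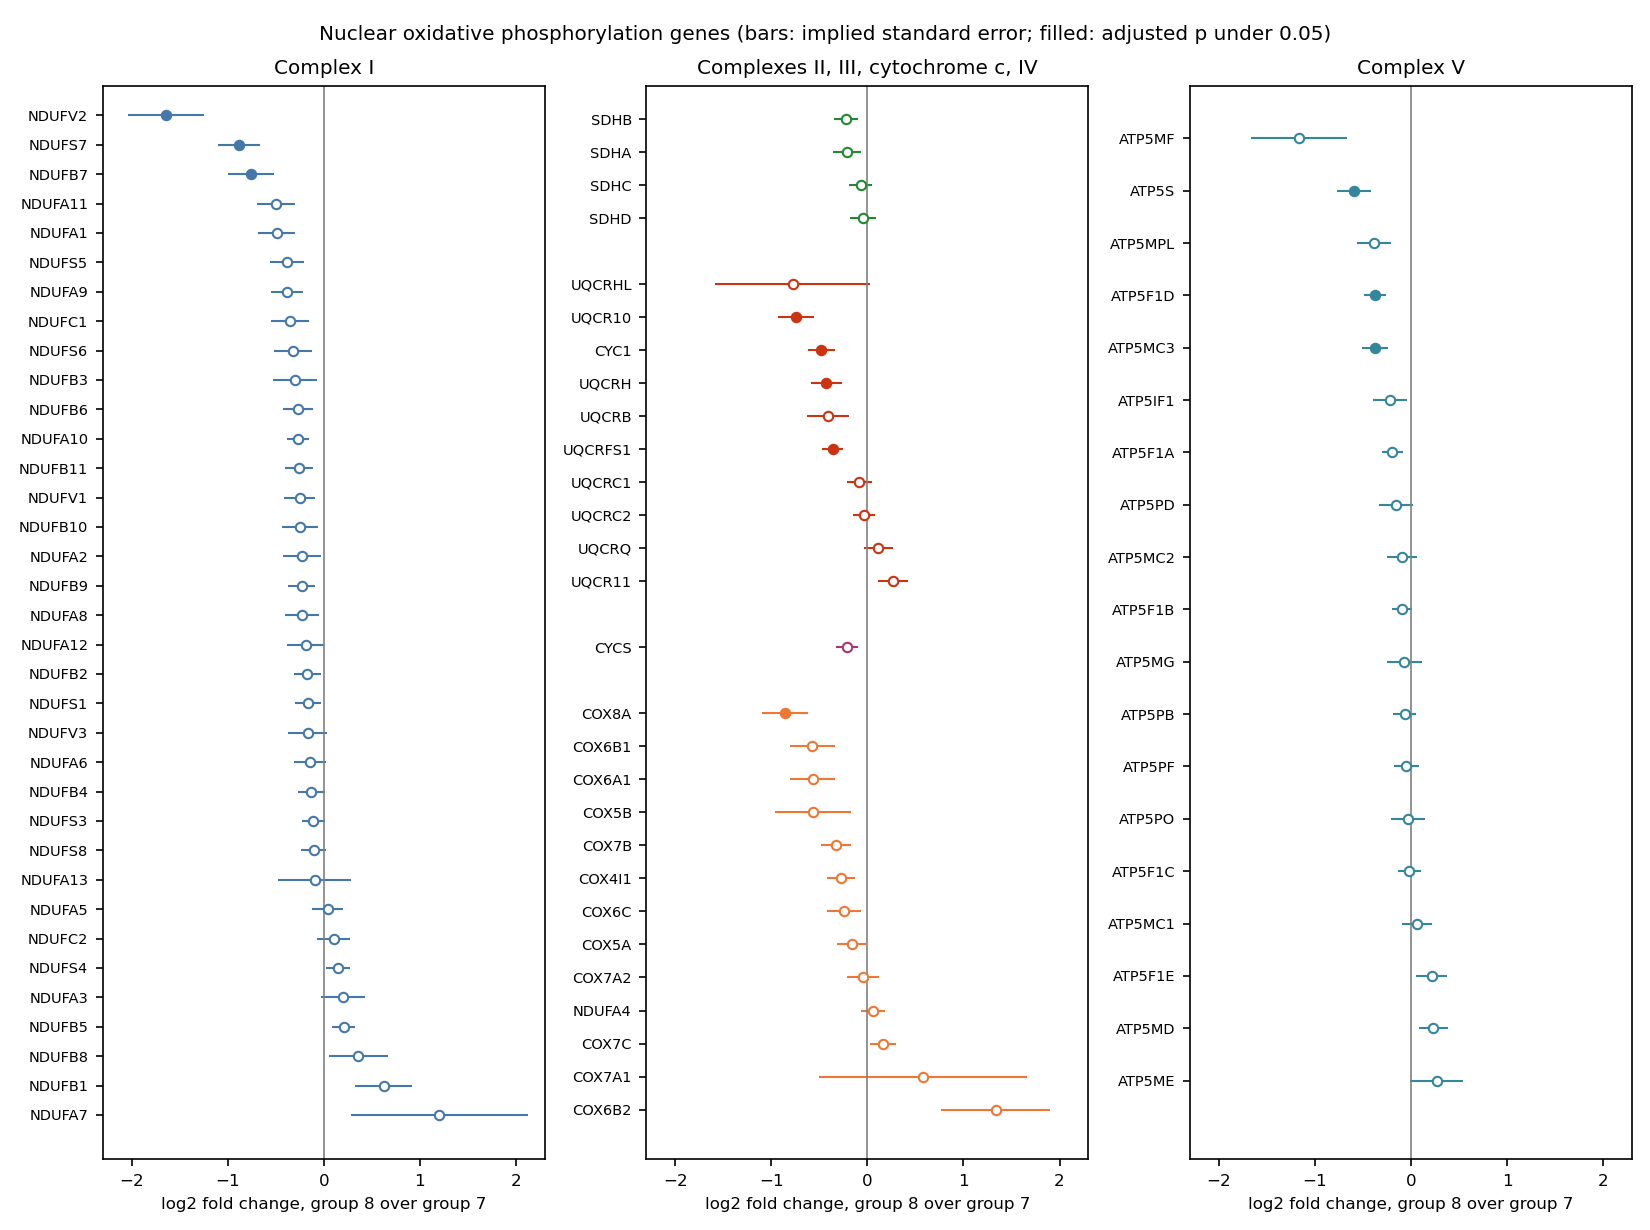
Log2 fold change of group 8 over group 7 for the nuclear genes, by complex, with 1 gene of complex I not drawn, with bars of 1 implied standard error; filled points had an adjusted p under 0.05. The 11 filled points all lie left of 0, and the members on the right are unfilled. Some of these have wide bars, such as NDUFA7 at 1.2 ± 0.92, and others narrower ones, such as UQCR11 at 0.26 ± 0.16.

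Complex I, the NADH dehydrogenase that feeds electrons into the chain, had 3 of 36 genes called lower and 0 higher. Its median log2 fold change was -0.21, with 27 genes below 0, and 8.33% of its genes were called lower, below the background of 11.2%. At an unadjusted p under 0.05, 8 genes were lower and 1 higher. Of the 3 calls, 2 fell among the 7 nuclear core subunits, which carry the redox centres and the quinone site and are conserved in bacteria.

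NDUFV2, a core subunit that carries an iron-sulfur cluster beside the NADH-binding flavoprotein, was lower in group 8, at 32.1% of its level in group 7. Its log2 fold change was -1.64 ± 0.39 with an adjusted p of 0.0004 (chromosome 18, 9102630 to 9134345, plus strand, GRCh38). It had the lowest value of all 83 genes and 28.4% of its exonic bases are shared with another gene annotated on the same strand, which limits the certainty of its size. NDUFS7, the core subunit with the terminal iron-sulfur cluster next to the ubiquinone site, was at 54.3% in group 8, with -0.88 ± 0.22 and an adjusted p of 0.000532 (chromosome 19, 1383527 to 1395589, plus strand). On the opposite strand, other annotated genes cover 49.1% of its exonic bases, and the library protocol does not mark strand.

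The other core subunits were not called. NDUFV1, which binds NADH and flavin, had -0.25 ± 0.16 and NDUFS1, the largest iron-sulfur subunit, -0.17 ± 0.14. NDUFS3 had -0.11 ± 0.12 and NDUFS8, which carries iron-sulfur clusters on the way to the quinone site, -0.11 ± 0.13.

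Accessory subunits surround that core and are needed for its assembly and stability. Of 29 such genes, 1 was called lower. NDUFB7, a subunit on the intermembrane-space face of the membrane arm, was at 59.2% in group 8, with -0.76 ± 0.24 and an adjusted p of 0.0105 (chromosome 19, 14566078 to 14572062, minus strand). It shares no exonic bases with other annotated genes. NDUFA1, encoded on the X chromosome and needed for membrane-arm assembly, had -0.49 ± 0.19 and NDUFA11 -0.49 ± 0.20, with adjusted p values of 0.0512 and 0.0559. NDUFA10 had -0.27 ± 0.11, NDUFA9, which helps to join the peripheral and membrane arms, -0.38 ± 0.17, and NDUFS5 -0.38 ± 0.18, each with an unadjusted p under 0.05 and no call. Among the rest, NDUFS4 and NDUFS6, which complete the assembly of the NADH-oxidising arm, had 0.15 ± 0.13 and -0.32 ± 0.20. Those and 19 further accessory genes lay between -0.35 and 0.36, with no call and no unadjusted p under 0.05. The high end of the complex was less precise. NDUFB1 had 0.63 ± 0.30, with an adjusted p of 0.118, and NDUFA7 1.2 ± 0.92, the highest of complex I and the least precise.

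Complex II, succinate dehydrogenase, links the tricarboxylic acid cycle to the chain, and none of its 4 genes was called at the authors' adjusted p, 0 in either direction, nor was any at an unadjusted p under 0.05. SDHA, the flavoprotein, had -0.21 ± 0.14 and SDHB, the iron-sulfur subunit, -0.22 ± 0.12. The membrane anchors SDHC and SDHD had -0.071 ± 0.12 and -0.047 ± 0.13. All 4 lay below 0, and each was smaller than the smallest called change of any member, that of UQCRFS1.

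Complex III, the cytochrome bc1 complex, had 4 of 10 genes called lower and 0 higher, or 40%, against the background of 11.2%. Its median of -0.38 was the lowest of the complexes. A difference between complexes was not tested. Both nuclear subunits that carry a redox centre were among the 4. CYC1, cytochrome c1, was at 71.8% in group 8, with -0.48 ± 0.14 and an adjusted p of 0.00626 (chromosome 8, 144095027 to 144097525, plus strand). UQCRFS1, the Rieske iron-sulfur protein, was at 77.9%, with -0.36 ± 0.11 and an adjusted p of 0.0076 (chromosome 19, 29205321 to 29213541, minus strand), and 3 annotated pseudogenes bear its name.

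The other called genes of complex III were small subunits. UQCR10, which lies next to the Rieske protein and cytochrome c1, was at 59.8%, with -0.74 ± 0.19 and an adjusted p of 0.00112 (chromosome 22, 29767369 to 29770413, plus strand). UQCRH, the hinge protein that helps cytochrome c1 to bind cytochrome c, was at 74.4%, with -0.43 ± 0.16 and an adjusted p of 0.0381 (chromosome 1, 46303631 to 46316776, plus strand). UQCRH has 4 annotated pseudogenes and a near-identical protein-coding copy, UQCRHL, at -0.77 ± 0.81, and reads could be split between them. Adjustment over all deposited p-values instead moved its adjusted p to 0.0582.

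The core proteins of complex III, which form its matrix-side scaffold, had values near 0, UQCRC1 at -0.084 ± 0.13 and UQCRC2 at -0.036 ± 0.11. UQCRB, which binds ubiquinone, had -0.41 ± 0.22 with an adjusted p of 0.173. UQCRQ and UQCR11 were the members above 0, at 0.11 ± 0.15 and 0.26 ± 0.16. The called values ran from -0.74 to -0.36, and UQCRB and UQCRHL, which were not called, lay in or below that range. Differences among the subunits were not tested. CYCS, cytochrome c, which carries electrons from complex III to complex IV and has a second role in apoptosis, had -0.21 ± 0.11 with an adjusted p of 0.176. As many as 40 annotated pseudogenes bear the name of CYCS. Pseudogenes are not confined to the genes marked here, since 46 members have at least 1.

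Complex IV, cytochrome c oxidase, reduces oxygen, and its nuclear subunits surround a mitochondrially encoded catalytic core. Of 13 genes, 1 was called lower and 0 higher, or 7.69%, against the background of 11.2%. Complex IV had a median log2 fold change of -0.25, with 9 genes below 0. COX8A, one of its small ubiquitous membrane subunits, was at 55.3% in group 8, with -0.85 ± 0.24 and an adjusted p of 0.00307 (chromosome 11, 63974607 to 63976543, plus strand). Another gene annotated on the same strand shares 34.5% of its exonic bases. COX6B1, which faces the intermembrane space at the cytochrome c site, had -0.57 ± 0.23, COX6A1 -0.57 ± 0.24 and COX7B -0.32 ± 0.16, all with an unadjusted p under 0.05 and adjusted p values of 0.0589, 0.0691 and 0.125.

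The remaining ubiquitous subunits of complex IV were not called. COX5B, which binds zinc, had -0.57 ± 0.40, COX4I1, an isoform of the subunit where ATP acts on the enzyme, -0.28 ± 0.15, COX6C -0.25 ± 0.18 and COX5A -0.16 ± 0.15. COX7A2, NDUFA4 and COX7C were at -0.044 ± 0.16, 0.059 ± 0.12 and 0.17 ± 0.14. The tissue-restricted isoforms were not called and had the largest standard errors of complex IV. COX6B2, known from testis, had 1.34 ± 0.57 with an unadjusted p of 0.0192 and an adjusted p of 0.0772, and COX7A1, known from heart and skeletal muscle, 0.58 ± 1.08. Without them the median of complex IV was -0.28. With them the mean was -0.11, against a mean of -0.31 without.

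Complex V, the ATP synthase, had 3 of 19 genes called lower and 0 higher. The share was 15.8%, against backgrounds of 11.2% for all genes and 13.4% for protein-coding genes. The median of complex V was -0.093, closer to 0 than those of the other complexes, and 15 genes lay below 0. In the F1 part, which holds the catalytic sites and the central stalk, ATP5F1D, the delta subunit of the stalk, was at 77.1% in group 8, with -0.38 ± 0.12 and an adjusted p of 0.0103 (chromosome 19, 1241746 to 1244826, plus strand). The catalytic subunit ATP5F1B had -0.093 ± 0.10, its partner ATP5F1A -0.19 ± 0.11, and the stalk subunits ATP5F1C and ATP5F1E -0.019 ± 0.12 and 0.22 ± 0.16, with no call.

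The rotating c ring is built from 1 mature protein that 3 genes encode. ATP5MC3 was lower, at 77.1% in group 8, with -0.37 ± 0.13 and an adjusted p of 0.0241 (chromosome 2, 175176258 to 175184607, minus strand). ATP5MC2 and ATP5MC1 had -0.094 ± 0.16 and 0.062 ± 0.15 with no call, and a difference among the 3 genes was not tested. ATP5S, the third call, was at 66.3%, with -0.59 ± 0.17 and an adjusted p of 0.005 (chromosome 14, 50312326 to 50335558, plus strand). ATP5S encodes the coupling factor B protein, now named DMAC2L, and is not a structural subunit of the enzyme. Genes on the opposite strand share 20.1% of its exonic bases.

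The 4 peripheral stalk genes, which hold F1 still against the rotor, lay between -0.16 and -0.031 (ATP5PD, ATP5PB, ATP5PF and ATP5PO), with no call. Among the 5 membrane accessory genes, ATP5MF had -1.17 ± 0.50 and ATP5MPL -0.38 ± 0.17, both with an unadjusted p under 0.05, and adjusted p values of 0.0785 and 0.101. ATP5MF shares exons with a readthrough gene and has 5 annotated pseudogenes. ATP5ME and ATP5MD were the highest genes of complex V, at 0.27 ± 0.28 and 0.23 ± 0.15, and ATP5MG had -0.068 ± 0.19. ATP5IF1, the inhibitor that blocks ATP hydrolysis when the membrane potential fails, had -0.22 ± 0.18.

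**Figure D2:**
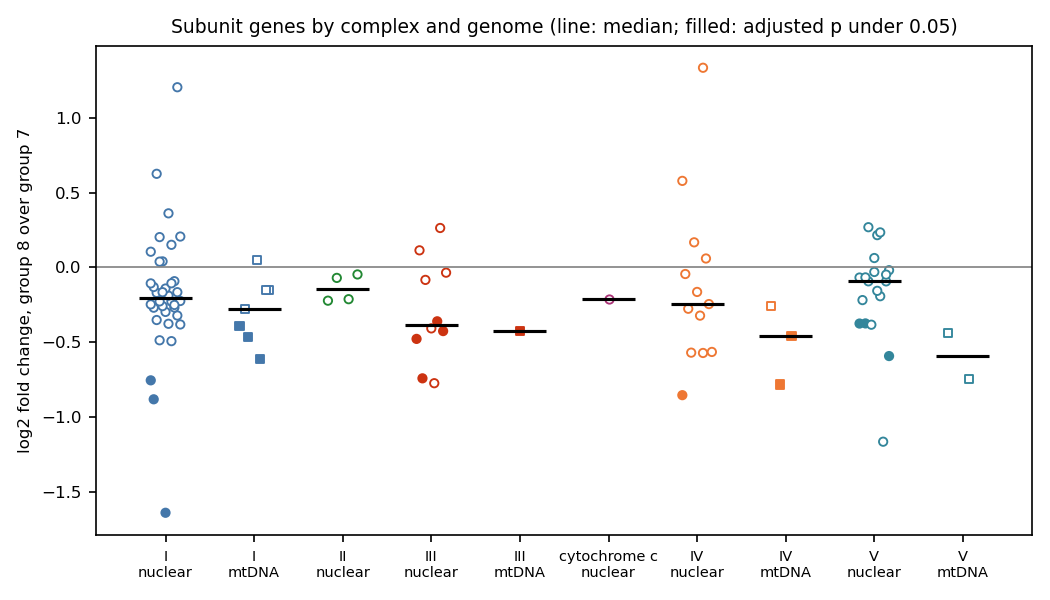
Log2 fold change of nuclear genes (circles) and mitochondrially encoded genes (squares) of each complex, with the median as a line and filled symbols for an adjusted p under 0.05. The nuclear medians run from -0.38 in complex III to -0.093 in complex V, and the mitochondrial medians lie below the nuclear median in each complex that has both.

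Of the 13 subunits encoded in mitochondrial DNA, 6, or 46.2%, were called lower and 0 higher, against backgrounds of 11.2% and 10.4%. Their median log2 fold change was -0.43. These genes lie close together on the same chromosome, all but MT-ND6 on the plus strand. The positions of MT-ATP8 and MT-ATP6 overlap, as do those of MT-ND4L and MT-ND4. Their calls may therefore not be separate, and the difference from the background was not tested. For complex I the median of the 7 mitochondrial genes was -0.28 beside -0.21 for the nuclear genes, with MT-ND1 at -0.39 ± 0.15, MT-ND2 at -0.61 ± 0.17 and MT-ND3 at -0.47 ± 0.14 called. MT-ND4, MT-ND5 and MT-ND6 had -0.15 ± 0.18, -0.28 ± 0.19 and -0.15 ± 0.21 with no call, and MT-ND4L 0.051 ± 0.13. MT-CYB, the cytochrome b of complex III, was called at -0.43 ± 0.15, beside CYC1 and UQCRFS1, so that all 3 subunits of that complex with a redox centre were called lower.

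In the mitochondrially encoded core of complex IV, MT-CO3 was called at -0.78 ± 0.13 and MT-CO2 at -0.46 ± 0.13, while MT-CO1 had -0.26 ± 0.14 with no call. MT-ATP8 and MT-ATP6 of complex V had -0.75 ± 0.37 and -0.44 ± 0.20, with adjusted p values of 0.143 and 0.103.

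Assembly factors, which build the complexes but do not remain in them, are set here beside the same backgrounds of 11.2% lower and 10.4% higher, with no test of any list. For complex I, 3 of 16, or 18.8%, were lower and 0 higher, with a median log2 fold change of -0.11. ECSIT had -0.59 ± 0.15, COA1 -0.37 ± 0.13 and NDUFAF5 -0.42 ± 0.15. For complex II, 1 of 4 was lower, SDHAF3 at -0.50 ± 0.17. For complex III, 2 of 6 were lower, UQCC3 at -1.25 ± 0.36 and TTC19, which acts on the Rieske protein after its insertion, at -0.39 ± 0.12, and the median was -0.037. For complex IV, 4 of 21, or 19%, were lower and 0 higher, with a median of -0.29. TACO1, an activator of MT-CO1 translation, had -0.76 ± 0.18, COA7 -0.46 ± 0.12, the copper chaperone SCO1 -0.35 ± 0.13 and COX18 -0.53 ± 0.20. For complex V, 1 of 4 was called, and it was higher, TMEM70 at 0.53 ± 0.17, an assembly factor of the c ring.

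Upstream of the chain, in pyruvate dehydrogenase and the tricarboxylic acid cycle, 4 of 18 genes, or 22.2%, were lower and 0 higher, against backgrounds of 11.2% and 10.4%, with a median of -0.15. IDH3G, the gamma subunit of the NAD-dependent isocitrate dehydrogenase, had -1.05 ± 0.12 with an adjusted p of 4.44e-16, MDH2 -0.38 ± 0.13 and DLST -0.30 ± 0.11. The partner subunits IDH3A and IDH3B had 0.12 ± 0.14 and -0.32 ± 0.16 with no call. Among 7 other genes that feed electrons to ubiquinone, ETFB and ETFA, the subunits of the electron transfer flavoprotein, were lower at -0.72 ± 0.19 and -0.31 ± 0.11, and 0 were higher.

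Carriers and cristae genes were called lower in 25% and 20% of cases, and regulators in 7.14% of the 14 with an adjusted p below 1, against the background of 11.2%. Of 8 carrier and channel genes, SLC25A6, an ADP/ATP carrier, and VDAC1 were lower at -0.52 ± 0.16 and -0.33 ± 0.10, and 0 were higher. Of 10 cristae and prohibitin genes, PHB2 at -0.43 ± 0.13 and C19orf70, a MICOS subunit, at -0.86 ± 0.29 were lower and 0 higher. Of 15 regulators of mitochondrial biogenesis and of mitochondrial DNA expression, 1 was lower and 0 higher. That gene was PPRC1, a coactivator of the PGC-1 family, at -0.77 ± 0.13 with an adjusted p of 2.76e-07. The factors behind the promoter words were not called, NRF1 at -0.095 ± 0.18, GABPA at 0.054 ± 0.20 and YY1 at -0.12 ± 0.15, and TFAM, which packages mitochondrial DNA, had -0.056 ± 0.12. PPARGC1A, which encodes PGC-1 alpha, was listed with an adjusted p of 1.

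The largest related group, the mitochondrial ribosomal proteins that translate the mitochondrial subunits, had 12 of 78 genes lower and 1 higher. Its median log2 fold change was -0.25, with 67 genes below 0. MRPL12 had -1.69 ± 0.32, MRPL3 -0.63 ± 0.12, MRPS2 -0.62 ± 0.13 and MRPS12 -0.74 ± 0.16. The share called lower was 15.4%, against 11.2% of all genes with an adjusted p below 1 and 13.4% of the protein-coding ones. The median was below the -0.19 of the 83 subunit genes. Neither difference was tested.

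**Figure D3:**
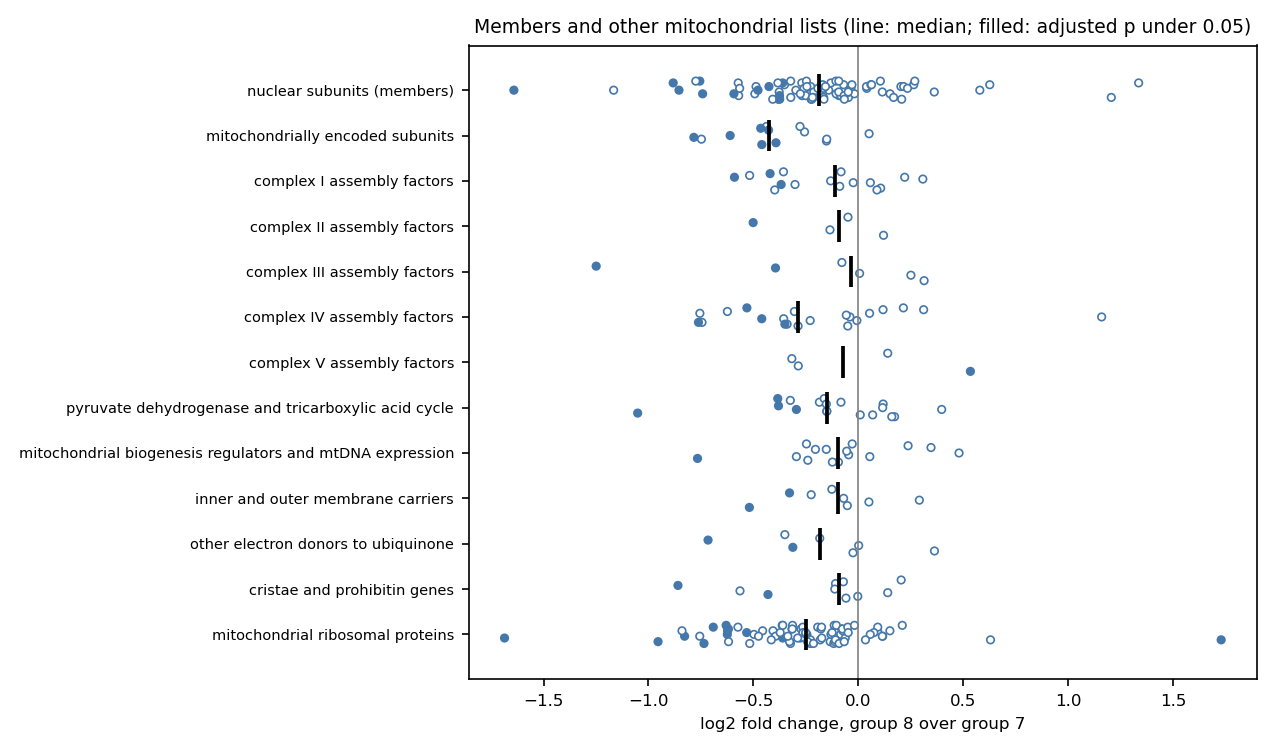
Log2 fold change of each gene in the 83 nuclear subunit genes and in 12 other mitochondrial lists, with the median as a line and filled points for an adjusted p under 0.05. Medians of all the lists lie left of 0, from -0.037 for complex III assembly factors to -0.43 for mitochondrially encoded subunits, and most filled points lie left of 0.

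Precision differed widely among the genes. Implied standard errors ran from 0.103 to 1.08 with a median of 0.161. In the 72 genes with a standard error under 0.25, the values lay between -0.88 and 0.26, with 10 called lower and 0 higher. The 10 lower calls were 13.9% of these 72. The same limit held for 10008 protein-coding genes among the 18002 described above. Of those, 1616 were called lower, or 16.1%, and 1278 higher. The members' share of lower calls was thus below that background, and the difference was not tested. The other 11 members spanned -1.64 to 1.34, with 5 of 11 below 0 and NDUFV2 as their only call. Standard errors were larger in shorter genes, with a Spearman correlation of -0.404 across the 83 genes, which share libraries. They were also larger where exons overlap: the median was 0.238 in the 11 genes with at least 25% of their exonic bases shared with another gene and 0.158 in the rest. With those 11 genes left out, 8 members were called lower and 0 higher.

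**Figure D4:**
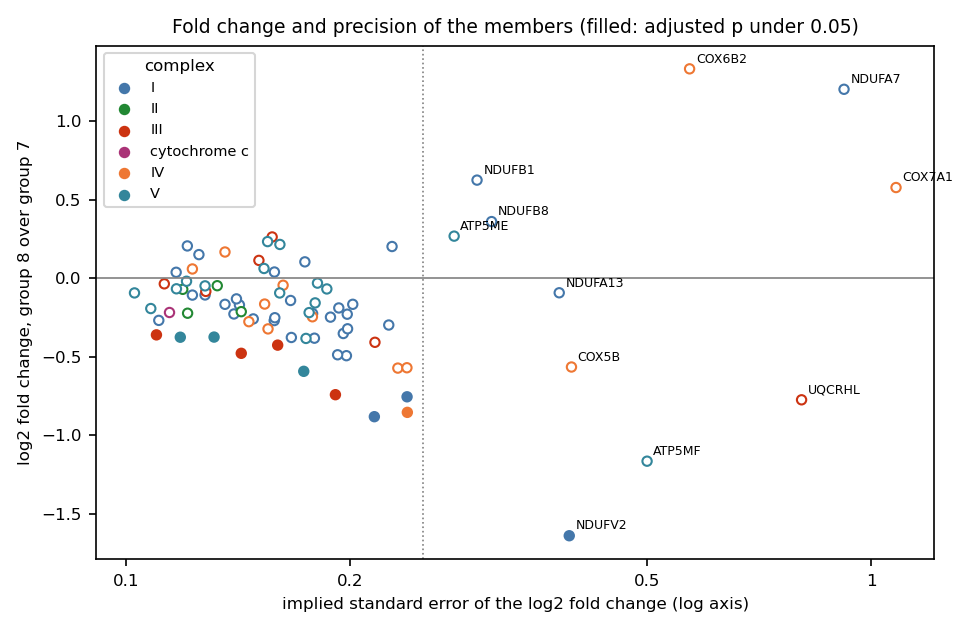
Log2 fold change of the 83 genes against the implied standard error on a log axis, coloured by complex and filled for an adjusted p under 0.05; the dotted line marks 0.25. Left of the line the values narrow to between -0.88 and 0.26, and 10 of the 11 called genes lie there.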

How the data were processed

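The data are poly-A RNA sequencing of PC9-BrM3 cells, 1 GEO sample for each of shPCDH1 and shNC. The authors' tools, as the submitters' processing notes list them without roles, include DESeq2 1.20.0, featureCounts 1.5.0-p3, HISAT2 2.0.5 and CASAVA. The build is not given in the sources used here. Gene positions and exonic lengths of all 83 members equal those of GENCODE release 29 (GRCh38). Deposited for each gene are, per the file headers, the authors' log2 ratio of group 8 over group 7 with its p-value and adjusted p-value, with 9653 genes at an adjusted p of 1. Other deposited columns used here, gene length, start and end, are annotation in bases and positions, per the file headers.

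The 20 columns of library and group values were not used, because no label ties their codes to a GEO sample. So no count model was fitted, no depth is given and no library was left out. Standard errors are the absolute fold change over the normal quantile of the deposited p. The arithmetic was checked on simulated data whose p-values were made under the same Wald assumption, so that assumption was not tested. Members, lists, promoter words and the rule for named genes were chosen with earlier results of these data known. That rule named members called or with p under 0.05, core and restricted subunits, the extremes of each complex, up to 4 called genes per other list and the mitochondrial genes. Other genes were named after their values were seen, among them the rest of the members. Values of 1 member and of 1 listed gene are not reported here, and both remain in the counts and medians. Listed genes were matched by symbol or by current symbol through the gene identifier. Python 3.11.15, pandas 2.3.3 and scipy 1.17.1 were used.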

Additional observations from a re-analysis of the deposited data

How the results depend on the processing

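No paired analysis was possible because no library column could be tied to a sample, and for the same reason no library could be left out. The 11 lower calls became 7 at an adjusted p of 0.01, 18 at 0.10 and 6 with a minimum absolute log2 fold change of 0.5. At 0.10, 1 member, COX6B2, was called higher. Centring on the median of protein-coding genes, a shift of 0.017, gave 15 lower calls, with 6 in place of 3 in complex I and 2 in place of 1 in complex IV. NDUFA1, NDUFA10, NDUFA11 and COX6B1 were the added genes. Adjustment over every deposited p-value gave 10 lower calls, without UQCRH. Leaving out ATP5S, a choice made after seeing the data, gave 10. The medians of the 83 genes and of each complex stayed below 0 under every alternative run. These were the mean, centring, members with an adjusted p below 1, members without restricted isoforms, and members plus NDUFAB1, NDUFA4L2 and COX7A2L. Removal of a length and GC trend was added after seeing the data. Several of these could not have raised a median above 0. Centring lowered every value, and the members with an adjusted p below 1 were all 83 genes. Leaving out or adding those genes did not touch complexes II and V or cytochrome c. The trend removal carries the offset described above, so the sign under it cannot be read either. Small changes were at the limit of the implied errors: no member with an absolute log2 fold change under 0.36 was called.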

Other observations

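Chromosome 19 holds 12 of the 83 members, more than any other chromosome, and 4 of the 11 lower calls, NDUFS7, NDUFB7, UQCRFS1 and ATP5F1D. Protein-coding genes of that chromosome with an adjusted p below 1 were called lower in 21.5% of 997 cases and higher in 10.3% in the authors' deposited table, against 13.4% lower over all chromosomes, with a median log2 fold change of -0.14. The median of the 12 members there was -0.23. On chromosome 1, with 8 members and 1 lower call, 11.8% of protein-coding genes were lower and 15.7% higher. The part of chromosomal position in the members' values was not tested.

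Subunits and paralogs that the name patterns missed gave no call. NDUFAB1, the mitochondrial acyl carrier protein that is also a subunit of complex I, had a log2 fold change of 0.054 ± 0.12, and COX7A2L, a factor of respiratory supercomplexes, -0.098 ± 0.13. NDUFA4L2, a paralog of NDUFA4 known as a hypoxia-induced gene, had 1.62 ± 0.80 with an adjusted p of 0.137.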
